A study of Mus musculus with 10 samples.

Results

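Messenger RNA of brains lacking COP1 was compared with that of brains heterozygous for COP1, which served as the controls. All samples came from mouse embryos at E18.5, that is in the last days before birth, and the olfactory bulbs had been taken off. The comparison was chosen by genotype label alone: 2 libraries labelled COP1 knockout (KO) and 2 labelled COP1 heterozygous (control), 4 of the 10 libraries of the series. All 28059 gene identifiers of the count files entered it. The controls carry the COP1 mutation on 1 of the gene's copies, so the comparison is of no intact copy with 1, not with a wild-type brain. The other 6 libraries, 2 per genotype, lacked COP1 together with cJun (DKO), with cJun and ETV1 (TKO), or with cJun, ETV1 and ETV5 (QKO), and they are used below only for levels side by side and for the shared estimate of spread. The sources used here give neither the allele nor any Cre driver, litter or sex. They do not state that libraries sharing a genotype are from separate litters, so p-values here reflect only how far these samples spread, part of which may be technical.

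COP1 is the substrate-binding part of a ubiquitin ligase. It works with DET1, DDB1, RBX1 and CUL4 proteins, and the Tribbles pseudokinases can bring it substrates. Known substrates include cJun, a transcription factor of the AP-1 family, and ETV1, ETV4 and ETV5 of the ETS family. COP1 marks them for degradation, so its loss acts first on the amount of these proteins and not on their mRNA. Around this age the mouse brain passes from making neurons to making glia: radial glia give rise to astrocytes and to oligodendrocyte precursor cells (OPCs), while most neurons are already in place.

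The controls held 43384681 and 43915724 counted reads and the KO libraries 54594523 and 40019481. Levels are given as nRPKM, the deposited length-scaled and size-factor-adjusted value. Neuronal genes defining brain were high in all 4 libraries: Tubb3, a neuronal tubulin, stood at 1054 and 1104 in control and 1071 and 1009.9 in KO. Xist, transcribed from an inactive X, reached 1848 CPM (a count relative to the library total) in control 1, where no read fell on Uty of the Y chromosome. Control 2 and both KO libraries had from 0.938 to 1.95 CPM for Xist and from 23.1 to 24.8 CPM for Uty. Sex pattern was therefore mixed in the controls and male in the KO. The libraries also differed in HOX genes, which mark the hindbrain and spinal cord: their mean log2 CPM over 13 genes was 0.81 and 1.31 in the controls and -1.81 and -2.80 in the KO. The same mean was 0.90 in one QKO library and -1.77 in the other. It can thus differ widely within 1 genotype, though there by less than between the control and KO group means. The sources used here do not say how much brainstem or spinal tissue each sample held. Its part in the results was not tested beyond the fits with HOX expression as a covariate, in which most calls of the comparison were lost.

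In the KO brains, transcription factors and surface proteins of the oligodendrocyte lineage, such as Olig1, Olig2 and Pdgfra, and intermediate filaments of glia, such as Gfap and Vim, were higher than in the controls. Etv1, Etv4 and Etv5, whose proteins are COP1 substrates, were lower. Olig1, Olig2 and the 3 Etv genes passed in every alternative fit, whereas Pdgfra, Gfap and Vim each lost the call in at least 1. Of 13 HOX genes 6 were lower as well, but none of these 6 calls passed when any 1 library was left out or with HOX expression as a covariate. That covariate is the mean of the same 13 HOX genes, so its fit cannot test the HOX calls. Of 18671 genes tested, 137 (0.734%) passed an adjusted p of 0.05 in edgeR's quasi-likelihood test. The KO brains had 94 genes higher (0.503% of the genes tested) and 43 lower (0.23%). The higher genes were mainly modest in size: their median fold was 1.55, and 19 exceeded 2-fold. Among the lower genes the median fold was 2.05, and 22 exceeded 2-fold. For each of the 137 genes, both KO libraries lay on the same side of both controls, which held for 49.5% of all genes tested. The median log2 fold change of all genes tested was 0.01. Gene lists below are read against that median and against the shares called. At an unadjusted p under 0.05 in the same test, 1162 of the 18671 genes tested were higher and 786 lower.

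With 2 libraries a group, the number of calls rested on each library. Leaving out control 1 gave 25 calls, leaving out control 2 gave 35, leaving out KO 1 gave 23 and leaving out KO 2 gave 44. All 137 genes kept their direction in these 4 fits, but 17 passed the threshold in all 4 and 90 in none. In these 4 fits the log2 fold changes of the higher genes stayed between 0.677 and 1.28 times their value with all libraries. Those of the lower genes stayed between 0.795 and 2.23 times, and only Hoxa5 moved by over 1.5 times. With the HOX mean as a covariate 106 genes were called, of which 29 were among the 94 higher and 7 among the 43 lower. A call lost there need not mean a smaller fold change. On the log2 scale Eomes went from -0.76 ± 0.15 to -1.08 ± 0.26 and Prr5l from 1.12 ± 0.12 to 1.19 ± 0.23, both lost. Sncg, also lost, went from -1.56 ± 0.30 to -0.26 ± 0.30. With Xist as a covariate 63 were called, of which 42 were among the 94 and 18 among the 43.

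**Figure D1:**
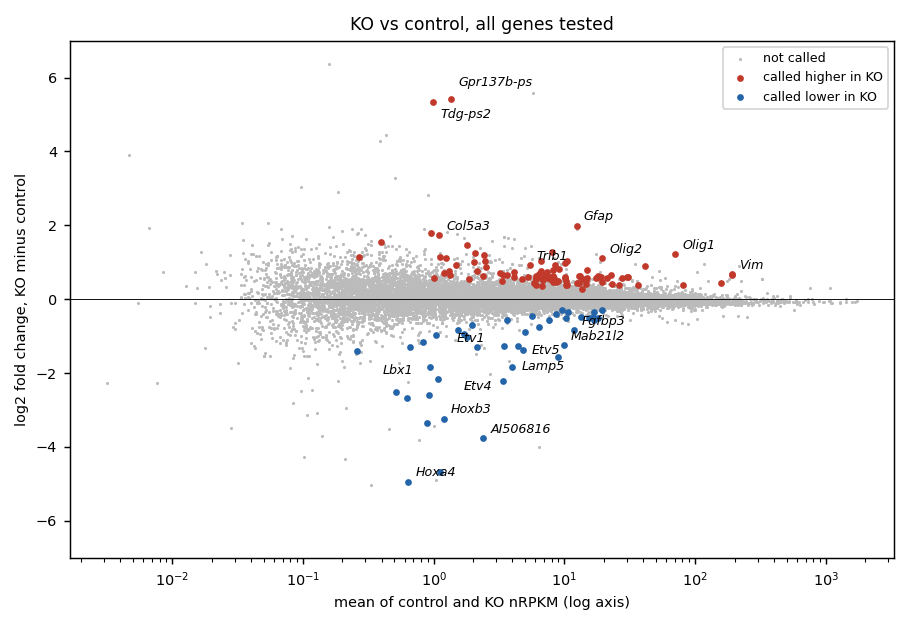
Log2 fold change of KO over control (vertical axis) against the mean of the control and KO nRPKM (horizontal log axis) for each gene tested, with the genes called higher and lower in colour and some of them named. Xist, Tsix and genes beyond the axis range are not drawn. The 43 lower genes include the HOX genes at the low end of the level axis and Etv4, Etv5 and Etv1, and the 94 higher genes include Gfap, Olig1 and Vim.

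The targeted gene is described first. Cop1 stood at 5.0 and 4.74 nRPKM in control and 3.84 and 4.16 in KO (-0.28 ± 0.09 on the log2 scale, adjusted p = 0.27), which was not called. Both KO libraries were below both controls, but the difference was small against the loss that the genotype label implies. Since the sources used here do not give the deleted part of the gene and reads were counted over the whole gene, these counts do not check the label. Of the 10 genes of the COP1 ligase and its Tribbles adaptors, 1 rose and none fell. That gene was Trib1, a Tribbles pseudokinase that binds COP1, at 3.79 and 3.76 nRPKM in control and 6.96 and 7.18 in KO. Its log2 fold change was 0.91 ± 0.08 (adjusted p = 3.78e-04), and it passed in every alternative fit, the 4 that leave out a library included. Trib2, a related adaptor, stood at 44.4 and 46 in control and 54.1 and 56.8 in KO, which did not pass (adjusted p = 0.077). Trib3 was low throughout, at 0.405 and 0.556 in control and 0.482 and 0.509 in KO. The ligase subunits Ddb1 and Rbx1 had log2 fold changes of 0.01 ± 0.08 and -0.05 ± 0.07.

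Among 10 transcription factors known as COP1 substrates, 3 fell and none rose, and the 3 were the PEA3 group of ETS factors. Etv4 showed the largest fall, from 5.15 and 6.08 nRPKM in the controls to 1.18 and 1.2 in the KO. Its log2 fold change was -2.22 ± 0.12 (adjusted p = 6.38e-06). Etv5 stood at 6.72 and 7.24 in control and 2.65 and 2.68 in KO (-1.38 ± 0.08, adjusted p = 9.35e-06). For Etv1 the values were 4.82 and 4.95 in control and 1.76 and 2.29 in KO (-1.27 ± 0.11, adjusted p = 4.55e-04). In each of the 3 the higher KO library was under the lower control by a wide margin. All 3 passed in every alternative fit. Jun, the mRNA of cJun, stood at 15 and 15 in control and 16.1 and 15.3 in KO, and its log2 fold change of 0.07 ± 0.19 did not pass. Of 12 genes for AP-1 partners of cJun, edgeR called 0, 0 had an unadjusted p under 0.05, and DESeq2 called 0. Their median log2 fold change was 0.02.

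**Figure D2:**
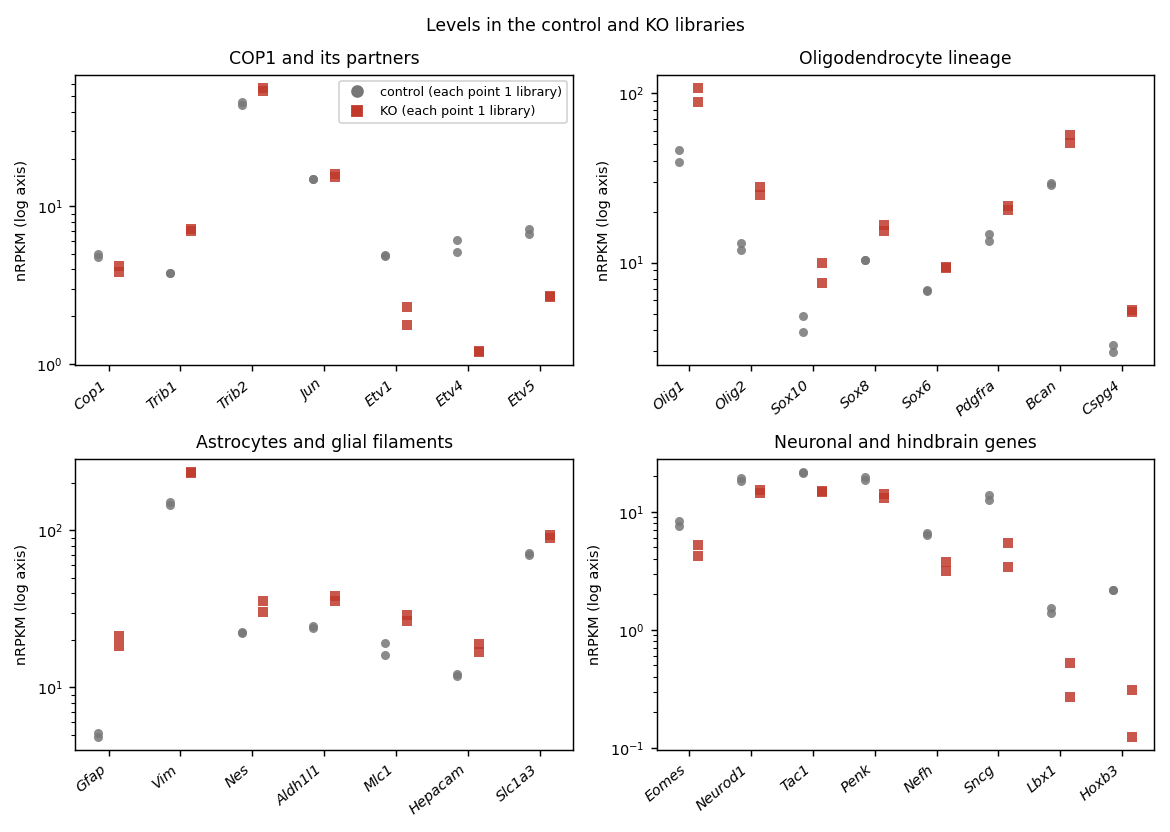
nRPKM (log axis) of genes in 4 groups, 1 point per library, with the 2 control libraries as circles and the 2 KO libraries as squares. The KO points of Etv4, Etv5 and Etv1 lie under the control points, and those of Trib1, Olig1, Olig2, Gfap and Vim lie above them without overlap.

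ETV factors are themselves induced by receptor tyrosine kinase signalling through ERK, and several ERK feedback inhibitors share that control. Of 13 feedback genes, 1 fell: Spred3, an inhibitor of RAS activation, at 9.82 and 9.996 nRPKM in control and 7.14 and 7.82 in KO (-0.40 ± 0.07, adjusted p = 0.0339). It passed in none of the 4 fits that leave out a library, nor with the HOX covariate (adjusted p = 0.131). Other feedback genes did not pass, with log2 fold changes of 0.28 ± 0.09 for Spry2, -0.26 ± 0.08 for Spry4 and 0.05 ± 0.08 for Dusp6. The median of the list was 0.05.

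Promoters of the called genes were searched for letters related to the sequences that the substrate families bind. These were TGANTCA, named the AP-1 letters below, and CCGGAA, a core bound by ETS factors. N is any base here, while the AP-1 element has C or G at that place, so a match need not be that element. Both strands were read from 250 bases before to 50 after each RefSeq start (assembly GRCm38.p6), and the letters of the 2 motifs do not overlap. The AP-1 letters stood in 4 of the 77 higher genes with a promoter in the table (5.19%) and in 0 of 26 lower ones, against 6.33% of 13097 genes tested. The ETS letters stood in 12 of 77 higher genes (15.6%) and 3 of 26 lower ones (11.5%), against 26.7% of genes tested. Per promoter of that length, the shares over all 16535 were 5.34% and 23.1%. A match describes the letters only and is no measure of binding. The promoters of Etv1, Etv5, Inka2 and Gfap held neither. Where found in higher genes, the AP-1 letters read TGACTCA in Creb5 and Mt2 and TGAATCA in Gcnt4 and Trim9. The 4 higher genes with the AP-1 letters were Creb5, Gcnt4, Mt2 and Trim9, whose calls passed in none of the 4 fits that leave out a library, and of them Trim9 alone passed with the HOX covariate (adjusted p = 0.0386). To show what a match to the ETS letters looks like in genes described below, these are windows upstream of the start, on the gene's strand and 5′ to 3′, with the match in capitals and the plus strand for all 3 genes. The letters read TTCCGG here, which is CCGGAA on the other strand. The windows are from Egfr (chr11:16752064-16752109), the EGF receptor, Vim (chr2:13574185-13574230), an intermediate filament of glia and progenitors, and Rhoq (chr17:86962931-86962976), a small GTPase.
Egfr: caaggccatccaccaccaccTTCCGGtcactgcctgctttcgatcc
Vim: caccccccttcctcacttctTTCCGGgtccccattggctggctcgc
Rhoq: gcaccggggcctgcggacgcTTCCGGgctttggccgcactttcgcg
All 3 genes were called higher in KO, with values given below.

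Of 15 transcription factors of the oligodendrocyte lineage, 5 rose in the KO brains, 10 did not pass and none fell, with a list median of 0.17, and 11 had both KO libraries above both controls, against 24.5% of all genes tested. Olig1 stood at 39.1 and 46.2 nRPKM in control and 108 and 88.7 in KO (1.21 ± 0.13 on the log2 scale, adjusted p = 0.00159). Its neighbour Olig2, the factor that starts the lineage, stood at 11.9 and 13 in control and 28 and 25.1 in KO (1.11 ± 0.09, adjusted p = 2.24e-04). For both genes the KO libraries lay well above the controls without overlap, and both passed in every alternative fit. Sox10, which drives oligodendrocyte differentiation, rose from 3.87 and 4.86 to 9.95 and 7.61, with KO 1 the higher of the KO libraries. Sox8, its close relative, stood at 10.4 and 10.3 in control and 16.7 and 15.4 in KO. Sox6, which restrains differentiation of precursors, had the smallest change of the 5, from 6.83 and 6.93 to 9.46 and 9.36. Tcf7l2, a factor of newly formed oligodendrocytes and of thalamus, was at 45.8 and 46 in control and 49.6 and 52.9 in KO and did not pass (adjusted p = 0.52). Sox10, Sox8 and Sox6 each passed in 1 of the 4 fits that leave out a library. With the HOX mean as covariate Sox10 passed (adjusted p = 0.0135) and Sox8 and Sox6 did not (adjusted p = 0.116 and 0.0561), while with Xist as covariate Sox10 did not (adjusted p = 0.0523). In bulk tissue, more cells of a type and more RNA per cell cannot be told apart, nor can fewer cells and less RNA per cell.

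Of 18 genes for OPC surface and matrix proteins, 3 rose and none fell, and the list median was 0.27. For 14 of the 18, both KO libraries were above both controls, against 24.5% of all genes tested. Pdgfra, the PDGF receptor that defines OPCs, stood at 13.5 and 14.8 nRPKM in control and 21.5 and 20.5 in KO (0.58 ± 0.08, adjusted p = 0.00562). Bcan, the proteoglycan brevican, rose from 28.6 and 29.5 to 57 and 50.8 (0.90 ± 0.12). Cspg4, known as NG2, stood at 2.96 and 3.27 in control and 5.12 and 5.24 in KO and is also made by pericytes, of whose other 10 tested genes none was called. Ptprz1, Cspg5 and Serpine2, the most abundant of the list, did not pass, with log2 fold changes of 0.28 ± 0.11, 0.06 ± 0.06 and 0.27 ± 0.09. Of the 4 fits that leave out a library, Pdgfra passed in 2, Bcan in 1 and Cspg4 in none. All 3 calls held with the HOX mean as covariate, and that of Cspg4 was lost with Xist as covariate (adjusted p = 0.107).

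No myelin gene was called. Of 16 genes for myelin and maturing oligodendrocytes, edgeR called 0, 1 had an unadjusted p under 0.05 in each direction, and DESeq2 called 0. Their median log2 fold change was -0.03. Mbp, myelin basic protein, stood at 6.07 and 6.77 nRPKM in control and 6.18 and 5.93 in KO (-0.07 ± 0.07). Its KO and control libraries overlapped.

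Among 13 genes for glial filaments and reactive glia, 4 rose and none fell, with a list median of 0.31. Gfap, the intermediate filament of mature and reactive astrocytes, had the largest fold of any called gene on the lists of glia. It stood at 5.16 and 4.87 nRPKM in control and 21.3 and 18.3 in KO (1.99 ± 0.26, adjusted p = 0.00562). Vim stood at 152 and 145 in control and 232 and 236 in KO (0.66 ± 0.07). Nes, the filament nestin of neural progenitors, rose from 22.5 and 22.3 to 30.3 and 35.4, and Spp1, the secreted protein osteopontin, from 5.47 and 6.44 to 12 and 10.2. Tnc, a matrix protein of radial glia, stood at 46.5 and 42.4 in control and 58.1 and 68 in KO, outside the control range in both KO libraries but not called (adjusted p = 0.114). Of the 4 fits that leave out a library, Vim passed in all 4, Gfap and Nes in 1 each and Spp1 in none. With the HOX mean as covariate, 1 of these 4 calls held, that of Gfap (2.81 ± 0.42, adjusted p = 0.0266), while Vim, at 0.49 ± 0.12, did not pass (adjusted p = 0.0853).

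Of 24 genes for astrocyte identity and transport, 5 rose, none fell, and the median was 0.01. Of the 24, 12 had a positive and 12 a negative log2 fold change. At an unadjusted p under 0.05, 8 were higher and 2 lower. In 11 both KO libraries were above both controls and in 4 below, against 24.5% and 25% of all genes tested. Aldh1l1, a folate enzyme used as an astrocyte marker, stood at 24.1 and 24.7 nRPKM in control and 38 and 35.3 in KO (0.60 ± 0.08, adjusted p = 0.0069). Mlc1, a membrane protein of astrocyte junctions, rose from 16 and 19.1 to 28.8 and 26.4. Its partner Hepacam rose from 11.9 and 12.3 to 18.9 and 16.9. The glutamate transporter Slc1a3, abundant in radial glia and astrocytes, rose from 71.8 and 70.1 to 93.6 and 88.9, and Acsbg1, a fatty acid activating enzyme, from 11.2 and 12.9 to 17.6 and 16.3. Apoe, Aldoc and Glul, 3 abundant astrocyte genes, had log2 fold changes of 0.02 ± 0.12, -0.01 ± 0.10 and -0.01 ± 0.09, and for each of them the control and KO ranges overlapped. Aqp4, the water channel of astrocyte endfeet, stood at 13.1 and 12.4 in control and 13.4 and 11.3 in KO and did not pass. None of these 5 passed in all 4 fits that leave out a library, and Hepacam alone passed with the HOX covariate (adjusted p = 0.0232).

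Radial glia genes moved in both directions: of 19, 2 rose and 1 fell, with a median of 0.12. The 2 that rose were Slc1a3 and Dbi, an acyl-CoA binding protein, which stood at 136 and 133 nRPKM in control and 184 and 176 in KO. Pdpn, the membrane protein podoplanin, fell from 12 and 12.1 to 8.43 and 8.35. The most abundant gene of the list, Fabp7, a fatty acid binding protein, stood at 655 and 612 in control and 523 and 497 in KO (-0.30 ± 0.08, adjusted p = 0.128), with both KO libraries lower. Sox2, a progenitor factor, stood at 32.6 and 31.9 in control and 40.3 and 39.1 in KO, with both KO libraries higher, and Pax6 at 8.9 and 9.31 in control and 7.51 and 8.4 in KO. Neither Sox2 nor Pax6 passed. None of the 3 calls passed in a fit that leaves out a library or with the HOX covariate.

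Receptors of growth factors were among the genes that rose. Egfr, which drives the growth of glial progenitors, stood at 4.74 and 5.16 nRPKM in control and 7.55 and 8.3 in KO (0.69 ± 0.09, adjusted p = 0.00562). Lrig1, which restrains EGF receptors, rose from 13 and 12.5 to 16.7 and 16.7. These were the 2 called genes of 13 on the EGF list. Of 20 FGF genes 1 rose and 1 fell. Fgfr3, the FGF receptor of glial progenitors and astrocytes, stood at 10.8 and 11.3 in control and 20.02 and 17.6 in KO (0.78 ± 0.10, adjusted p = 0.00462). Fgfbp3, a secreted protein that binds FGFs, fell from 15.7 and 14.9 to 8.18 and 8.75 (-0.84 ± 0.11, adjusted p = 0.00562). Fgfr1, at 19.7 and 19.8 in control and 20.9 and 20.8 in KO, did not pass. Egfr, Fgfr3 and Fgfbp3 each passed in 2 of the 4 fits that leave out a library and held with the HOX covariate. Lrig1 passed in none of these 4 and was not called with the HOX covariate (adjusted p = 0.0811).

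Single members of other pathways rose. In the Sonic hedgehog list it was Cdon, a co-receptor, at 5.5 and 5.41 nRPKM in control and 7.63 and 8.21 in KO, the 1 called of 12. For the 21 WNT genes it was Fzd9, a Frizzled receptor, at 5.78 and 6.17 in control and 11.1 and 9.43 in KO. The other WNT genes leaned lower: 14 of the 21 had a negative log2 fold change, and the list median was -0.09. In 10 of the 21 both KO libraries were below both controls, against 25% of all genes tested, and in 1 above. Dio2, the deiodinase by which astrocytes activate thyroid hormone, stood at 1.65 and 1.31 in control and 3.34 and 3.35 in KO (1.18 ± 0.16, adjusted p = 0.0069), and was the 1 called of 12 thyroid response genes. Col5a3, a collagen chain, stood at 0.514 and 0.507 in control and 1.73 and 1.65 in KO (1.74 ± 0.22) and was the 1 called of 22 collagens. Of 21 receptors for neuropeptides and related ligands 3 rose. They were the prokineticin receptors Prokr1 and Prokr2 and the bradykinin receptor Bdkrb2. The list did not move upward as a whole: its median was -0.03, and 12 of the 21 had a negative log2 fold change. In 9 both KO libraries were below both controls, against 25% of all genes tested, and in 5 above. At an unadjusted p under 0.05, 5 were higher and 5 lower. Prokr2 rose from 4.21 and 4.26 to 6.12 and 6.58 and Bdkrb2 from 0.735 and 0.667 to 1.51 and 1.55. Prokr1 stood at 0.902 and 1.01 in control and 2.55 and 2.68 in KO (1.46 ± 0.14, adjusted p = 5.85e-04). Of the 7 calls in these lists, that of Prokr1 passed in all 4 fits that leave out a library, those of Fzd9, Dio2 and Col5a3 in 1 each, and those of Cdon, Prokr2 and Bdkrb2 in none. Col5a3 alone of the 7 passed with the HOX covariate, where Prokr1 stood at 1.17 ± 0.25 (adjusted p = 0.0661). DESeq2 did not call Bdkrb2 (adjusted p = 0.0509).

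Other large rises were in genes that stand on no list. Gna14, a G protein subunit, stood at 0.208 and 0.20 nRPKM in control and 0.639 and 0.548 in KO. Prr5l, a partner of the mTORC2 kinase complex, rose from 0.775 and 0.789 to 1.63 and 1.76, and Pipox, a peroxisomal enzyme of amino acid breakdown, from 1.42 and 1.82 to 3.2 and 3.37. For AW047730 the values were 6.67 and 7.13 in control and 16.1 and 11.8 in KO. Of these 4, Prr5l passed in all 4 fits that leave out a library (1.12 ± 0.12, adjusted p = 0.00133), AW047730 in 1, and Gna14 and Pipox in none. The calls of AW047730 and Pipox held with the HOX covariate, while Prr5l and Gna14 did not pass there (adjusted p = 0.0536 and 0.256).

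Further called genes on no list, other than Inka2, were picked after their values were seen, and no group of genes like them was counted. Slc38a3, a glutamine transporter, stood at 16.9 and 17.5 nRPKM in control and 26.1 and 24.3 in KO. Cbs, a cystathionine synthase, rose from 6.41 and 6.41 to 9.998 and 9.86, and Acot11, an acyl-CoA thioesterase, from 1.33 and 1.36 to 2.74 and 2.67. Xylt1, which starts proteoglycan chains, stood at 5.09 and 5.93 in control and 9.06 and 8.18 in KO, and Chst3, which sulfates chondroitin, rose from 1.54 and 1.66 to 2.66 and 2.76. These 5 calls held with the HOX covariate, but Slc38a3 and Acot11 passed in 1 of the 4 fits that leave out a library and Cbs, Xylt1 and Chst3 in none. Rhoq stood at 9.999 and 10.2 nRPKM in control and 15.3 and 15.8 in KO (0.63 ± 0.06, adjusted p = 7.70e-04). Cdc42ep1, an effector of the GTPase CDC42, rose from 4.7 and 5.05 to 7.32 and 7.11, and Tagln2, an actin-binding protein, from 14.9 and 15.3 to 22.8 and 22.7. Inka2, an inhibitor of the kinase PAK4, stood at 4.58 and 4.82 in control and 11.4 and 11.4 in KO (1.29 ± 0.12, adjusted p = 4.55e-04). Cdc42ep1 and Tagln2 passed in none of the 4 fits that leave out a library and not with the HOX covariate (adjusted p = 0.136 and 0.0688). Rhoq and Inka2 passed in every alternative fit. So did Sall3, a zinc finger factor, which rose from 4.6 and 5.22 to 8.15 and 8.35, and Tmem229a, which rose from 5.63 and 5.51 to 9.66 and 8.83.

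Neuronal genes that were called mostly fell. Of 15 proneural factors and intermediate progenitor genes, 2 fell, none rose, and the median was -0.25. Eomes, the factor of intermediate progenitors that is also expressed in the olfactory bulb, stood at 7.64 and 8.4 nRPKM in control and 4.21 and 5.24 in KO (-0.76 ± 0.15, adjusted p = 0.0472). Neurod1 stood at 19.5 and 18.3 in control and 14.5 and 15.3 in KO (-0.33 ± 0.07). Of the 15 genes, 11 had both KO libraries below both controls, against 25% of all genes tested. Neurod6 and Tbr1, factors of cortical neurons, did not pass, at -0.33 ± 0.09 and -0.21 ± 0.11 on the log2 scale. Nhlh1, a factor of newborn neurons named after its values were seen, fell from 1.98 and 1.95 to 1.09 and 1.12. With the HOX mean as covariate, Eomes was at -1.08 ± 0.26, Neurod1 at -0.42 ± 0.12 and Nhlh1 at -0.68 ± 0.26. Eomes, Neurod1 and Nhlh1 passed in none of the 4 fits that leave out a library and not with the HOX covariate (adjusted p = 0.0819, 0.13 and 0.219). Of 12 olfactory bulb genes Eomes was the 1 called, and their summed level was 105.5 and 111.04 in control and 105.6 and 109.4 in KO. Most of that sum was Gnal, at means of 47.2 in control and 49 in KO, and Reln, at 31.2 and 33.7. At an unadjusted p under 0.05, 3 of the 12 were lower, Eomes included, and 1 was higher.

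For settled neurons of the forebrain few genes were called. Of 18 cortical projection neuron factors, edgeR called 0, 3 had an unadjusted p under 0.05 higher and 1 lower, and DESeq2 called 1. Of 18 GABAergic interneuron genes, edgeR called 0, 3 had an unadjusted p under 0.05 higher and 2 lower, and DESeq2 called 1. Their medians were 0.01 and 0.07. The GABA-synthesizing enzyme Gad1 stood at 55.7 and 58.7 nRPKM in control and 53.3 and 58.9 in KO, with overlapping groups. Of 15 striatal genes 2 fell. They were the peptide precursors Penk, of the indirect pathway, at 18.8 and 19.7 in control and 14.2 and 13.1 in KO, and Tac1, of the direct pathway, at 21.8 and 21.2 in control and 14.9 and 14.9 in KO. Neither passed in a fit that leaves out a library, and with the HOX covariate Penk was at -0.32 ± 0.15 (adjusted p = 0.284) and Tac1 at -0.56 ± 0.16 (adjusted p = 0.133). These were also the 2 called of 22 neuropeptide genes, whose median was -0.19. The most abundant peptide, Sst, stood at 126 and 116 in control and 113 and 109 in KO and did not pass. Oxt, the hypothalamic hormone oxytocin, rose on 8 and 11 counts in control and 45 and 27 in KO (1.78 ± 0.34, adjusted p = 0.0407), the 1 called of 20 thalamic and hypothalamic genes. It passed in none of the 4 fits that leave out a library and was called neither with the HOX covariate (adjusted p = 0.209) nor by DESeq2 (adjusted p = 0.177).

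Of 16 genes for neurofilaments and axons 2 fell, and of 21 presynaptic genes 1 fell. Nefh, the heavy neurofilament of large axons, stood at 6.44 and 6.57 nRPKM in control and 3.75 and 3.15 in KO (-0.90 ± 0.13, adjusted p = 0.0112). Sncg, a synuclein of brainstem and peripheral neurons, fell from 13.9 and 12.7 to 5.45 and 3.39. Sv2b, a synaptic vesicle protein, stood at 10.5 and 10.9 in control and 8.53 and 8.68 in KO (-0.31 ± 0.06), the smallest size of fold change among the called neuronal list genes. None of these 3 calls passed in a fit that leaves out a library. With the HOX covariate Nefh was at -0.33 ± 0.14 (adjusted p = 0.256), Sncg at -0.26 ± 0.30 (adjusted p = 0.687) and Sv2b at -0.36 ± 0.11 (adjusted p = 0.139). Gap43 and Stmn2, 2 of the most abundant axonal genes, had log2 fold changes of -0.08 ± 0.07 and -0.07 ± 0.07. Of the presynaptic genes, whose median was -0.12, 15 had both KO libraries below both controls, against 25% of all genes tested. On the axonal list 12 did, with a median of -0.08. Glutamate receptors and ion channels had no calls in edgeR: of 19 receptors 4 had an unadjusted p under 0.05 higher and 2 lower, and of 21 channels 5 higher and 1 lower. DESeq2 called 0 of these receptors and 1 of the channels.

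Several of the largest falls were in HOX genes, which mark the hindbrain and spinal cord. Of 13 HOX genes tested 6 fell, none rose, and the median was -3.44. Of the 13, 12 were lower at an unadjusted p under 0.05. In all 13 both KO libraries were below both controls, against 25% of all genes tested. Hoxb3 stood at 2.16 and 2.19 nRPKM in control and 0.311 and 0.125 in KO (-3.24 ± 0.58, adjusted p = 0.0339). Hoxa3 fell from 1.4 and 1.83 to 0.185 and 0.119 (-3.36 ± 0.60) and Hoxa2 from 1.53 and 1.66 to 0.369 and 0.124 (-2.60 ± 0.45). Hoxb2 fell from 1.02 and 1.15 to 0.185 and 0.142. Hoxa4 had 71 and 108 counts in control and 4 and 2 in KO, and Hoxa5 had 123 and 259 in control and 16 and 0 in KO. Summed over the 13 genes, the level was 13.5 and 18.7 in control and 1.80 and 0.756 in KO. None of the 6 calls passed in a fit that leaves out a library, and none with the HOX covariate, which is made from these same genes.

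**Figure D3:**
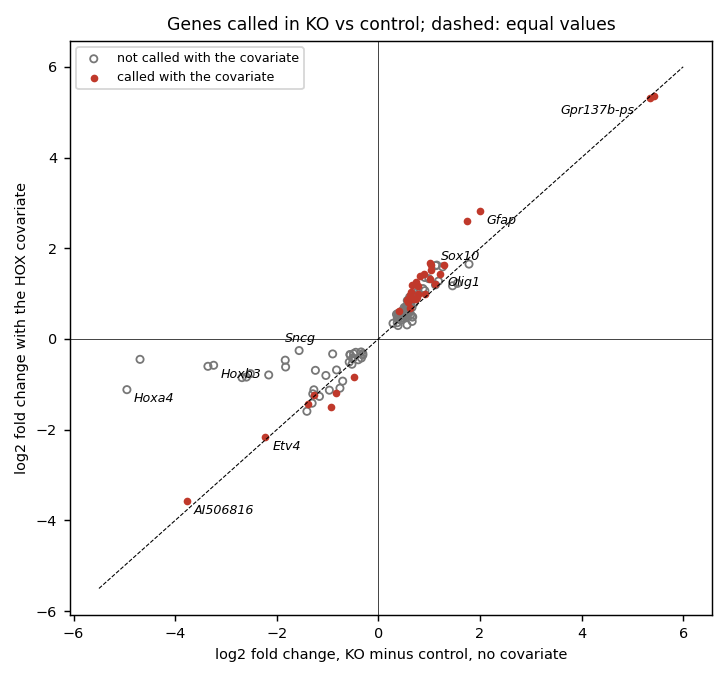
Log2 fold change of KO over control for the 137 called genes, without a covariate (horizontal axis) and with the HOX mean as a covariate (vertical axis), 1 point per gene, with the 36 genes still called filled and a dashed line at equal values. Hoxb3 moves from -3.24 to -0.58 ± 0.38 (log2 ± SE) and Sncg from -1.56 to -0.26 ± 0.30, while Etv4, at -2.22 and -2.17 ± 0.23, lies near the line.

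Other lists of caudal neurons also had negative medians, with few genes called. Of 16 hindbrain and spinal factors 1 fell, with a median of -0.40. It was Lbx1, a factor of dorsal spinal and hindbrain neurons, at 1.4 and 1.54 nRPKM in control and 0.524 and 0.268 in KO (-1.83 ± 0.35, adjusted p = 0.0472). Prph, the filament peripherin of motor and sensory neurons, stood at 5.93 and 5.71 in control and 2.13 and 1.42 in KO (-1.69 ± 0.41, adjusted p = 0.117), with both KO libraries below both controls. Of the 16 hindbrain and spinal factors, 15 had a negative log2 fold change. For 13 of the 16, both KO libraries were below both controls, against 25% of all genes tested. At an unadjusted p under 0.05, 10 of the 16 were lower, and DESeq2 called 4 lower. Of 20 cerebellar genes, 11 had both KO libraries below both controls, against 25% of all genes tested, and 1 above. At an unadjusted p under 0.05, 8 of the 20 were lower and 0 higher. With a median of -0.10, 2 of these 20 were called lower. They were Atoh1, which specifies granule cells, at 1.02 and 0.846 in control and 0.40 and 0.354 in KO, and Neurod1. None of these 3 calls held with the HOX covariate or in a fit that leaves out a library, and their adjusted p values with that covariate were 0.588, 0.189 and 0.13. Of 9 serotonin neuron genes edgeR called 0, with 5 lower at an unadjusted p under 0.05, 0 in DESeq2 and a median of -0.25. Over all 18671 genes tested, 786 were lower at that p. Of 13 midbrain dopamine genes edgeR called 0, with 5 lower and 1 higher at that p, 1 in DESeq2 and a median of -0.19. All 12 motor, cholinergic and noradrenergic genes had a negative log2 fold change, with a median of -0.56. For 11 of these 12, both KO libraries were below both controls. edgeR called 1 of the 12, and that call was lost with the HOX covariate.

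Further genes that fell stand on no list, and of those given here Mab21l2, Gdf10 and Sfrp5 were named after their values were seen. Mab21l2, a gene of the dorsal midbrain and eye, stood at 14.1 and 13.6 nRPKM in control and 5.98 and 5.68 in KO (-1.24 ± 0.13, adjusted p = 0.00159) and passed in all 4 fits that leave out a library. Gdf10, a BMP family ligand, fell from 9.11 and 9.24 to 6.44 and 5.95, and Lamp5, a vesicle protein of GABAergic neurons, from 6.78 and 5.76 to 2.03 and 1.42. Brs3, a bombesin receptor subtype, stood at 0.414 and 0.351 in control and 0.163 and 0.117 in KO, and Gm5454 at 3.11 and 2.99 in control and 1.13 and 1.34 in KO. Sfrp5, a secreted WNT inhibitor, fell from 0.963 and 1.32 to 0.441 and 0.586. Gm5454 passed in 2 of the 4 fits that leave out a library, and Gdf10, Lamp5, Brs3 and Sfrp5 in none. None of these 6 calls held with the HOX covariate, where Mab21l2 was at -0.69 ± 0.15 (adjusted p = 0.0746) and Lamp5 at -0.47 ± 0.29 (adjusted p = 0.434). DESeq2 did not call Brs3 (adjusted p = 0.129).

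The lists for proliferation, p53 and Notch had no calls. Of 18 replication genes and 18 mitosis genes, edgeR called 0, none had an unadjusted p under 0.05, and DESeq2 called 0 of either list. Their medians were 0.04 and 0.08. Top2a, a mitotic marker, stood at 17.3 and 16.2 nRPKM in control and 16.9 and 17.9 in KO. Of 15 p53 response genes edgeR called 0, with 1 higher and 1 lower at an unadjusted p under 0.05 and 0 in DESeq2. Cdkn1a, the p53 target p21, stood at 19.98 and 20.03 in control and 19.6 and 18.3 in KO. Among 19 Notch genes edgeR called 0, with 4 higher and 1 lower at that p, and DESeq2 called 2. Hes5, a Notch target of radial glia, stood at 16.8 and 17.7 in control and 21.2 and 17 in KO. In all, 33 of 61 lists had no called gene, and 85 of the 137 called genes stood on no list.

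Markers of other cell types that a brain sample can hold were compared as summed nRPKM per library. Of 15 microglia genes edgeR called 0 (1 higher at an unadjusted p under 0.05, 0 in DESeq2), with sums of 87.6 and 91.6 in control and 88.4 and 82.9 in KO. Of 13 endothelial genes edgeR called 0 (0 at that p, 0 in DESeq2), with sums of 119.1 and 113.2 against 110.8 and 108.9. The 14 meningeal genes summed to 588.7 and 544.6 in control and 471.5 and 458.6 in KO. Of the 14, 11 had both KO libraries below both controls, against 25% of all genes tested. edgeR called 0 of them, 3 were lower at that p, and DESeq2 called 0. The difference in the sum lay mainly in Ptgds, a prostaglandin synthase of the meninges, at 315 and 268 in control and 211 and 205 in KO (-0.48 ± 0.15, adjusted p = 0.27). The 9 erythroid genes summed to 542.3 and 674.7 in control and 434.2 and 508.2 in KO, with 0 called by edgeR, 2 lower at that p and 0 in DESeq2. Of 13 genes for ependyma and motile cilia, 10 had a positive log2 fold change, and the median was 0.22. For 6 of the 13, both KO libraries were above both controls, against 24.5% of all genes tested. The 13 summed to 38.3 and 37.3 in control and 41.4 and 42.1 in KO. edgeR called 0 of them, 3 were higher at that p, and DESeq2 called 0. Foxj1, the factor that defines these cells, stood at 5.93 and 6.38 in control and 6.58 and 5.32 in KO, with overlapping groups. The part of meninges, blood and ependyma in the results was not tested.

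Levels in the other genotypes stand beside those of the KO, and they share the same controls. Olig2 stood at 21.3 ± 2.27 nRPKM (mean ± SD, n = 2) in DKO, 19 ± 0.788 in TKO and 11.3 ± 0.401 in QKO, beside 28 and 25.1 in the KO libraries. Gfap was at 5.11 ± 0.633, 5.71 ± 1.96 and 3.1 ± 1.39 in the same order, beside 5.16 and 4.87 in the control libraries. Vim stood at 138 ± 9.49, 128 ± 3.6 and 128 ± 8.54, with each mean below both controls. For Inka2 the values were 9.23 ± 0.899, 9.32 ± 1.24 and 6.62 ± 1.01, and for Trib1 6.69 ± 0.118, 5.65 ± 0.383 and 4.22 ± 0.147. Etv4 was at 1.7 ± 0.155, 2.19 ± 0.135 and 3.86 ± 0.0356. Hoxb3 stood at 0.55 ± 0.241, 1.24 ± 0.242 and 1.14 ± 1.01. Differences between the KO and these genotypes are not tested here.

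**Figure D4:**
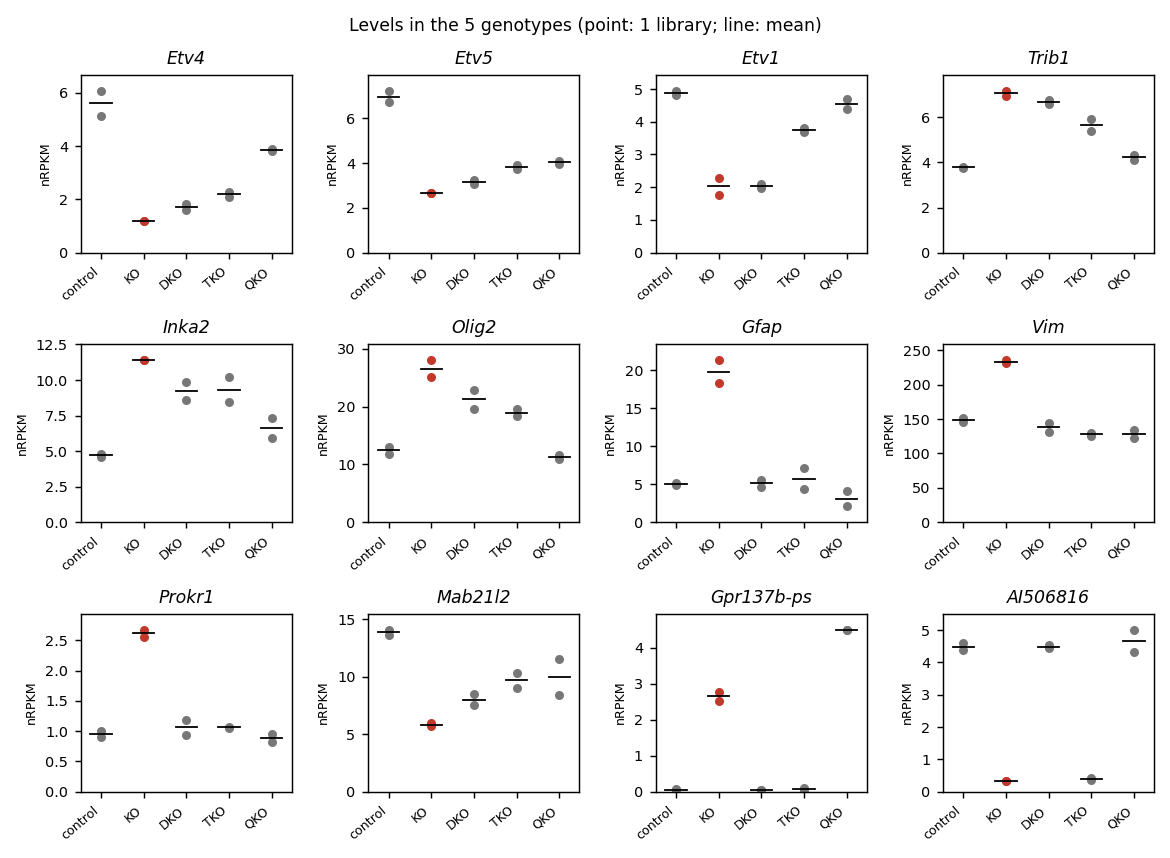
nRPKM of 12 genes in the 2 libraries of each of the 5 genotypes (points, with a line at the mean; vertical axes start at 0). The KO points of Gfap, Vim and Prokr1 lie above those of each of the other 4 genotypes, while Olig2 in DKO and TKO, at means of 21.3 and 19, lies between control and KO.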

How the data were processed

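The comparison uses 4 of 10 polyadenylated RNA libraries, each from 1 microgram of total RNA, with 5 libraries per lane and paired 75 bp reads, per the labels' protocols. Lane numbers are not stated, and a lane effect was not tested. Per the submitters' processing notes, the aligner was GSNAP (no version given) and the build NCBIM37. Per the file headers, the authors' counts are uniquely aligning reads per gene model, and their nRPKM is RPKM scaled by library size factors. The sources used here do not give the annotation release, the handling of strand or that of reads matching several gene copies, so a gene and its antisense partner or near-identical copy may share reads. The files list Entrez identifiers, of which RefSeq (GRCm38.p6) named 24998 of 28059 (89.1%), holding 95.8% of counts. Unnamed ones are written as ID and the number.

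Library totals over the series were between 31996944 and 54594523, so that a floor of 3 counts was between 0.055 and 0.0938 CPM, which covers counting error only. The chi-square per degree of freedom between the 2 libraries of a group was 9.80 in control and 7.51 in KO, so neither pair was as close as 1 library counted again.

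Counts were tested with edgeR 4.0.16 (R 4.3.3): quasi-likelihood test, 5 group means over all 10 libraries, TMM, filterByExpr (18671 genes kept, 9388 set aside), Benjamini-Hochberg adjustment over all genes tested, called under 0.05, with 5 residual degrees of freedom. Standard errors come from the F statistic. The script was tested on simulated data. The 11 alternatives include DESeq2 1.42.0, covariates for Xist and for HOX expression, and leaving out each library. Library numbers were given in accession order and pair nothing.

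The comparison, the 61 gene lists and the naming rule were chosen with earlier results of these data known. The rule names the COP1 adaptors and substrates, the 15 called genes each way with the largest fold change and at least 1 CPM, called list members, the 3 most abundant members of a list, and neighbouring called genes. Other genes, including further members of a list, were named after their values were seen. Some genes that the rule names are not reported here. Of the list symbols, 9 matched no identifier. Promoters are from RefSeq (GRCm38.p6).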

Additional observations from a re-analysis of the deposited data

How the results depend on the processing

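All 137 called genes kept their direction under all 11 alternatives, and 13 passed the threshold in each of them. How many genes were called depended on the setting. Against 137 calls (94 higher, 43 lower), a fit to the 4 control and KO libraries only gave 691 (468 and 223), DESeq2 gave 239 (137 and 102), and no filter on low counts gave 300 (174 and 126). A covariate for Xist gave 63 (44 and 19), leaving out the 2 libraries with high Xist gave 40 (28 and 12), and a covariate for HOX expression gave 106 (93 and 13). DESeq2 size factors within edgeR gave 130 (83 and 47). Leaving out 1 library gave between 23 and 44 calls, between 17 and 32 higher and between 5 and 13 lower, and 90 of the 137 genes passed in none of these 4 fits. The lone library left in a group is there assumed to vary like the other groups. The log2 fold change of Col2a1, a cartilage collagen, lay between -1.19 (without KO 2) and 1.1 (without KO 1), and was 0.36 ± 0.47 with all libraries. The cause was not tested. With 2 libraries a group and 5 residual degrees of freedom, genes that missed the threshold are not shown to be equal. No paired analysis was possible because the labels give no replicate numbers that the groups share.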

Other observations

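A few called genes differed nearly as if on in one group and off in the other. The transcribed pseudogene Gpr137b-ps had 6 and 11 counts in control and 443 and 353 in KO, or 0.0434 and 0.079 nRPKM in control and 2.53 and 2.78 in KO. In DKO and TKO it was at 0.0496 ± 0.0147 and 0.0697 ± 0.0554 (mean ± SD, n = 2), and in QKO at 4.49 ± 0.0122. Tdg-ps2, a second pseudogene, had 6 and 7 counts in control and 333 and 247 in KO, and stood at 0.0465 ± 0.010, 0.0382 ± 0.0106 and 0.0787 ± 0.00424 nRPKM in DKO, TKO and QKO. AI506816, a long noncoding RNA, went the other way, with 594 and 570 counts in control and 54 and 38 in KO. It was as low in TKO, at 0.401 ± 0.0492, while DKO and QKO, at 4.49 ± 0.061 and 4.67 ± 0.476, were near the controls at 4.59 and 4.37. All 3 genes passed in every alternative fit. In each of them the libraries of a genotype differed little beside the gap between high and low genotypes. The genotypes that share the loss of COP1 did not share 1 level.

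Ero1b, an endoplasmic reticulum oxidase next to Gpr137b-ps, rose from 0.929 and 1.03 to 1.62 and 1.68 nRPKM and stood at 1.03 ± 0.0194, 0.89 ± 0.0155 and 2.56 ± 0.329 in DKO, TKO and QKO. By position, chromosome 6 held 16 of the 137 called genes among 848 tested (1.89%), against 0.734% of all genes tested, and 4 of the 16 were HOX genes of the Hoxa cluster. The X chromosome held 1 called gene among 603. Within 50 tested genes on either side of Cop1, 0 of the 101 genes in that window were called.

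Single libraries stood out in a few genes that were not called. Hspa8, a constitutive heat shock protein, stood at 25.3 and 50.6 nRPKM in control and 25.5 and 25.7 in KO, so that control 2 was apart from the other 3 libraries. Gh, growth hormone of the pituitary, stood at 0.0788 and 0 in control and 1.41 and 0.0572 in KO, and Col2a1 at 4.01 and 3.3 in control and 1.6 and 7.8 in KO, with the KO libraries the furthest apart in both. Other cartilage genes were also higher in KO 2 than in KO 1: Matn1 at 0.0419 and 1.81, Col9a1 at 0.703 and 1.71, and Acan at 0.178 and 0.394 in KO 1 and KO 2. The 12 skin, muscle and cartilage genes summed to 9.76 and 9.68 in control and 7.58 and 16.8 in KO. edgeR called 0 of them, and the part of such tissue in the results was not tested. The unnamed identifier ID100862060, by contrast, was called higher (log2 fold change 0.68), a call lost with the HOX covariate (adjusted p = 0.125). It had levels of 152 and 145 in control and 241 and 230.4 in KO beside those of Vim (152 and 145 in control and 232 and 236 in KO).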
